A study of Homo sapiens with 2 samples.

Results

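The kallikrein family is a group of secreted serine proteases encoded side by side on chromosome 19, and 8 of its genes (KLK1, KLK2, KLK3, KLK4, KLK10, KLK11, KLK12 and KLK15) are described here. Members were every probe set whose single platform gene symbol was one of these, which gave 23 probe sets of the 54675 on the array and of the 41097 that carry 1 gene symbol. The enzalutamide-sensitive prostate cancer line C4-2B was set against C4-2B-MDVR, a subline obtained from it by prolonged culture with that antiandrogen, and the stated aim was to find the genes behind resistance. RNA of each line, both kept in one medium with serum and left untreated before isolation, was hybridized to 1 Affymetrix array, so no spread between replicates, p-value or standard error can be given for any value. The resistant sample is named C4-2B-MDVR by its title, source and cell line fields, but its description field speaks of TaxR cells resistant to docetaxel, and that of the parental sample of docetaxel sensitivity. The cell line field was followed, and "C4-2B-MDVR" below means the array labelled so.

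Kallikreins are made as inactive precursors that are secreted and activated by removal of a short propeptide, often by another kallikrein. In the prostate, luminal epithelial cells secrete KLK3 (prostate-specific antigen, PSA) and KLK2 into seminal fluid, where KLK3 cleaves the semenogelins that form the seminal clot. Both genes are textbook targets of androgen, and blood PSA is used to follow prostate cancer. Serum in the medium supplies some androgen, and enzalutamide blocks androgen action.

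All differences below are on the log2 scale and negative where C4-2B-MDVR was lower. A probe set counted as detected, or above the floor, where the brighter of its values reached the median intensity of that array, which was 41.9 in C4-2B against 43.5 in C4-2B-MDVR. Marker genes were read by their brightest probe set, the one with the highest mean log2 intensity. The 7 prostate luminal markers that had one, among them the keratins KRT8 and KRT18, EPCAM, CDH1 and HOXB13, were all above the floor and within 2-fold, and their intensities summed to 14092 in C4-2B against 13064 in C4-2B-MDVR. The sums were 89.7 and 83.9 for 3 basal markers (1 above the floor), 356 and 329 for 5 fibroblast markers (2 above), 234 and 237 for 5 leukocyte markers (2 above), 218 and 225 for 4 endothelial markers (3 above) and 84.1 and 74.6 for 4 neuroendocrine markers (1 above). Other probe sets departed from this for 2 marker genes. A dimmer probe set of the luminal marker FOXA1 differed by -1.18, and dimmer probe sets of the fibroblast marker COL1A1 read 55.4 and 116 (1.07) and 45.7 and 104.7 (1.20). The part of COL1A1 in the values below was not tested. The leukocyte markers PTPRC and CD14 were under the floor on both arrays. The 3' to 5' log2 difference of the GAPDH control was 0.30 in C4-2B against 0.26 in C4-2B-MDVR, and that of ACTB was 0.74 and 0.52. The part of this gap in the values below was not tested.

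Of the 23 kallikrein probe sets, 17 were above the floor, and they read 7 of the 8 genes. KLK3, KLK2 and KLK15 had lower values in C4-2B-MDVR, and KLK4 had slightly higher ones in all 5 of its probe sets. KLK1, KLK11 and KLK12 ran from -0.23 to 0.32, a range that overlaps the KLK4 values. A log2 difference of -1 or less, that is 2-fold or more lower, was measured for 6 of the 17 (35.3%), against 4.06% of the 24087 single-symbol probe sets above the floor. The 6 belonged to KLK3, KLK2 and KLK15, with 2 probe sets each. A difference of 2-fold or more in the higher direction was measured for 0 of the 17, against 2.75% of all (2.28% with dim values raised to the floor, where it was again 0 of the 17). The median over the 17 was -0.23, beside 0.03 over all, and the values ran from -6.24 to 0.43. Of the 17, 10 were below 0 and 7 above, while 46.7% of all were below 0. The chosen members were known to include KLK3 and KLK2, so these shares describe the set and say nothing about other genes.

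**Figure D1:**
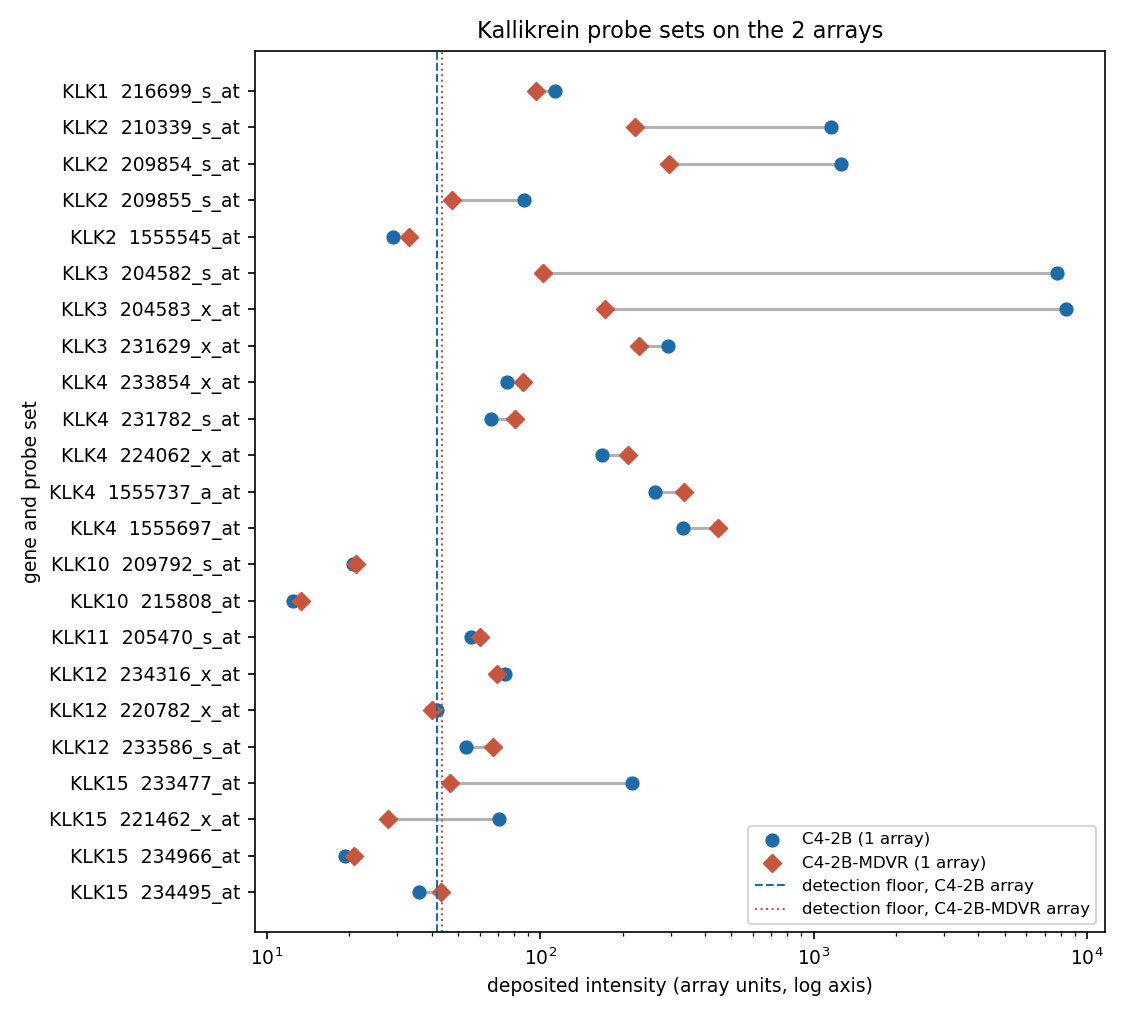
Deposited intensity (log axis) of each of the 23 kallikrein probe sets on the C4-2B array (circles) and the C4-2B-MDVR array (diamonds), with 1 array per line and dashed lines at the detection floors. The long lines belong to 2 probe sets each of KLK3, KLK2 and KLK15, and the 5 KLK4 probe sets all lean the other way by less than 2-fold.

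KLK3 had the largest difference of the family. Probe set 204582_s_at read 7753 in C4-2B against 102 in C4-2B-MDVR, which is 75.7-fold lower, a log2 difference of -6.24. Probe set 204583_x_at read 8379 and 172, a difference of -5.61 and 48.8-fold lower. Both stayed above the floor in C4-2B-MDVR, so neither difference was replaced by a bound. Passing the floor does not show that a value is KLK3 transcript. On the same array, probe set 1555779_a_at of the leukocyte marker CD79A read 117, more than the 102 of 204582_s_at. How much of the 102 and 172 came from KLK3 transcript was not tested. Probe sets 204582_s_at and 204583_x_at ranked 3 and 5 from the lowest among the 24087 probe sets. They make up 2 of the 10 that were 32-fold or more lower.

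The third KLK3 probe set did not show this. Probe set 231629_x_at read 292 in C4-2B against 229 in C4-2B-MDVR, a difference of -0.35, which is 1.28-fold lower and ranks 4688. The KLK3 probe sets therefore spanned 5.89 log2 units, the widest span of the 8 genes. Names ending in _s_at or _x_at mark probe sets whose probes may also match other transcripts, and all 3 KLK3 probe sets carry such a name. Which transcripts each one reads was not tested, because probe sequences were not used here.

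KLK2, a trypsin-like protease close to KLK3 that can activate the KLK3 precursor, was lower by less. Probe set 209854_s_at read 1263 in C4-2B against 294.9 in C4-2B-MDVR, a difference of -2.10 and 4.28-fold lower. Probe set 210339_s_at read 1154 and 223, a difference of -2.37 and 5.18-fold lower. These bright probe sets gave similar sizes, at ranks 155 and 114 from the lowest. The dimmer 209855_s_at read 87.0 and 47.4, a difference of -0.88, short of 2-fold, with the C4-2B-MDVR value near the floor. The fourth, 1555545_at, read 28.8 and 33.1 and was under the floor on both arrays, so it gives no direction. The KLK2 probe sets above the floor all have names ending in _s_at, so they may also match other transcripts, which was not tested. The bright probe sets of KLK3 (-6.24 and -5.61) differed by more than those of KLK2 (-2.37 and -2.10) on the log2 scale. Across whole cultures, fewer cells with these transcripts and less transcript per cell cannot be told apart.

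KLK15, a trypsin-like kallikrein whose gene lies next to KLK3, had 2 probe sets with lower values. Probe set 233477_at read 217 in C4-2B against 46.6 in C4-2B-MDVR, a difference of -2.22 and 4.66-fold lower, with the second value barely above the floor of 43.5. This is the only one of the 6 lower probe sets whose name carries no mark of shared probes. Probe set 221462_x_at read 70.7 and 27.6, a measured difference of -1.36. Its C4-2B-MDVR value was under the floor, so the bound is at least 1.63-fold lower and it is not past 2-fold by bound. With dim values raised to the floor 5 member probe sets were 2-fold or more lower, against 3.44% of all. The other two KLK15 probe sets read 35.9 and 43.4 (234495_at) and 19.4 and 20.9 (234966_at), under the floor on both arrays.

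The regions just upstream of these genes are shown because KLK2, KLK3 and KLK15 lie next to each other and were lower together, while nearby KLK4 was not. RefSeq windows of 300 bases (GRCh38.p14), 250 before the gene start and 50 after it, were held for 7 of the 8 genes in 11 windows, some genes having more than 1 start. The windows printed are chr19:50854665-50854964 on the plus strand for KLK3, chr19:50873189-50873488 on the plus strand for KLK2, chr19:50833525-50833824 on the minus strand for KLK15 and chr19:50911346-50911645 on the minus strand for KLK4. Each is written 5′ to 3′ along its gene, and capitals mark matches on either strand to TATAAA or to GAACA followed, after 4 free bases, by GTNCT:
KLK3: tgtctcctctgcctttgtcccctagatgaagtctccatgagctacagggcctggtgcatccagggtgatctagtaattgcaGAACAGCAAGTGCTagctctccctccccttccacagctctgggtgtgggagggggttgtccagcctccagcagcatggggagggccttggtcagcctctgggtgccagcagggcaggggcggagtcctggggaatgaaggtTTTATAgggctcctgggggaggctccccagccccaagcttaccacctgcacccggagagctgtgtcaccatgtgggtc
KLK2: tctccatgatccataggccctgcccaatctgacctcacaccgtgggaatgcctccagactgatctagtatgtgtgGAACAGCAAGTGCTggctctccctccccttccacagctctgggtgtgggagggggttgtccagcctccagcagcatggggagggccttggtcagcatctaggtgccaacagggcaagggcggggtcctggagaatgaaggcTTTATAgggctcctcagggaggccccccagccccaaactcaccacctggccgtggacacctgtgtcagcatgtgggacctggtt
KLK15: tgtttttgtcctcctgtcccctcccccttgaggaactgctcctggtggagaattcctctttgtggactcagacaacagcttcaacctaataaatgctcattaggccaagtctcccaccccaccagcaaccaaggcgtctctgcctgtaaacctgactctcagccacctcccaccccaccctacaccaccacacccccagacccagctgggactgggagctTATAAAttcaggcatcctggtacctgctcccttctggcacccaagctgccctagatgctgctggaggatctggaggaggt
KLK4: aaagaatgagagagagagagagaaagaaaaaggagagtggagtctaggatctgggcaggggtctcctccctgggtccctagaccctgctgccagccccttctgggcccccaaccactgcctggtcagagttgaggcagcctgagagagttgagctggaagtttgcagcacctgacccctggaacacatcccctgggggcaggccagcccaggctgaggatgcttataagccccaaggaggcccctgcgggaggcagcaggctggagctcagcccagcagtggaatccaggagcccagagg

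The KLK2 and KLK3 windows are near copies. Without gaps they matched at 225 of 294 aligned bases (76.5%), with an unbroken shared run of 80 bases, whereas the longest run in the other pairs among the 51 compared was 12 bases and the highest identity 36.5%. Both hold GAACAGCAAGTGCT, which starts 169 bases before the KLK3 start and 175 bases before the KLK2 start. These letters match the pattern GAACA, 4 free bases, GTNCT, which is shaped after the DNA element that mediates the androgen response and was chosen after the sequences were seen. It was found in 0.25% of the 35116 promoter windows of this length and in no other kallikrein window. The half-site AGAACA, which overlaps that pattern where an A precedes it, was found in KLK3 alone of the kallikreins and in 14.8% of all windows. The complete palindrome, AGAACA and its inverted repeat with 3 free bases between them, was in 1 of the 35116 windows and in 0 of the 22 kallikrein windows. Its core ACANNNTGT was in 5.37% of all windows and, among kallikreins, in KLK6 alone.

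TATAAA, the letters of a TATA box, was found on the gene's own strand of KLK15 30 bases before the start in the window printed, and not in the window of its other start. On the other strand it was found 34 bases before the KLK2 start and 28 bases before the KLK3 start, written there as TTTATA. It was in 11.5% of all windows. Of the 7 member genes with a window these were the 3 that held it, and 0 of the other 6 kallikrein genes with a window did. Only these exact letters were counted. Near forms were not, such as ttataag in the KLK4 window printed, gataaaa in a KLK14 window and tataaga in a KLK7 window. The KLK2 and KLK3 windows are near copies, so their matches are not separate observations. KLK2, KLK3 and KLK15 are also the 3 with probe sets 2-fold or more lower. The windows were shown because of those lower values, and a link between TATAAA and the differences was not tested. A match of letters is not a measurement of binding or of a start site in these cells.

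KLK4, a trypsin-like protease best known for processing tooth enamel matrix and also made in prostate, had higher values in C4-2B-MDVR in all 5 of its probe sets, each by less than 2-fold. Probe set 1555697_at read 331 in C4-2B against 447 in C4-2B-MDVR, a difference of 0.43. Probe set 1555737_a_at read 262 and 334 (0.35), and 224062_x_at read 168 and 208 (0.31). The dimmer 231782_s_at read 65.9 and 80.8 (0.29) and 233854_x_at read 75.6 and 86.2 (0.19). The 5 probe sets spanned 0.24 log2 units, so they differed little from each other, unlike those of KLK3, KLK2 and KLK15. All 5 stayed above 0 when the arrays were centred, quantile-normalized or corrected by loess. Without replicates, a difference of this size cannot be set against the spread between cultures.

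KLK1, tissue kallikrein, which releases kinins from kininogen, read 113 in C4-2B against 96.4 in C4-2B-MDVR, a difference of -0.23 in its only probe set. KLK11, a trypsin-like member of the epithelial kallikreins, read 55.8 and 60.0, a difference of 0.10 close to the floor. KLK12, also trypsin-like, read 74.2 and 69.2 in 234316_x_at (-0.10) and 53.6 and 66.9 in 233586_s_at (0.32), so its probe sets pointed in different directions. The third KLK12 probe set, at 41.9 and 40.0, was under the floor on both arrays. KLK10, an epithelial kallikrein, read 20.7 and 21.2 in 209792_s_at and 12.5 and 13.3 in 215808_at, under the floor on both arrays. A change of KLK10 was therefore not detectable here.

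**Figure D2:**
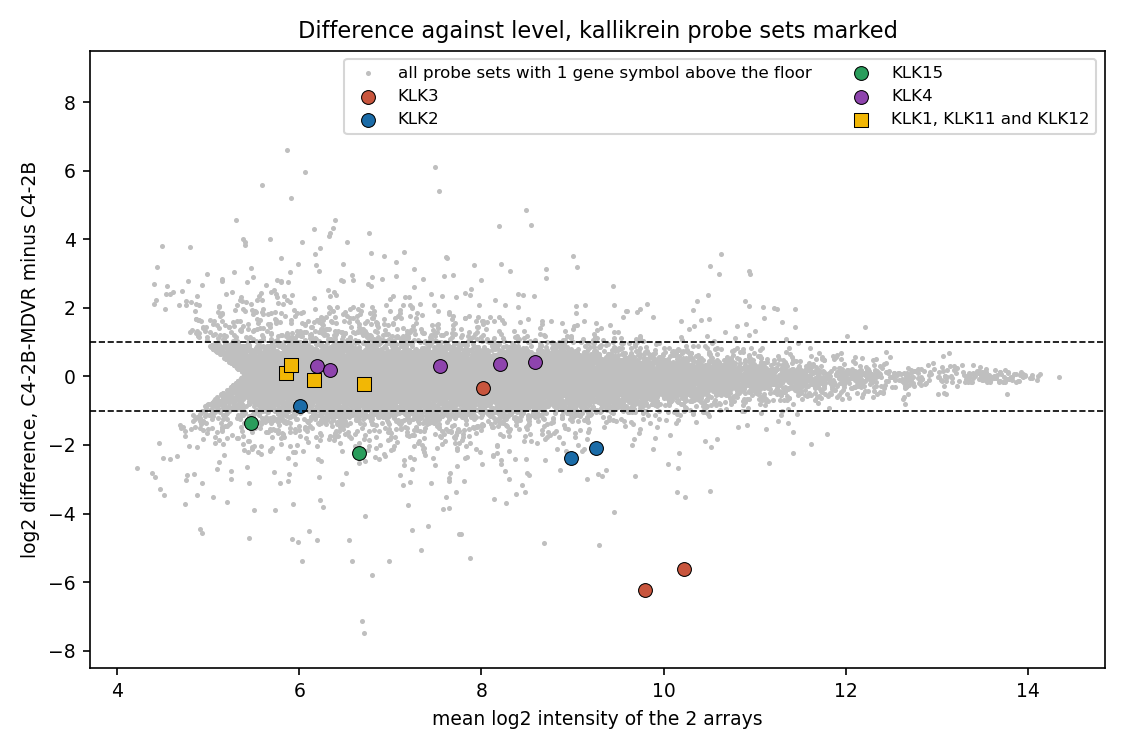
Log2 difference (C4-2B-MDVR minus C4-2B) against the mean log2 intensity of both arrays for the 24087 single-symbol probe sets above the floor, with those of the kallikreins marked and dashed lines at 2-fold. Points for KLK3 at -6.24 and -5.61 lie far below the cloud at their level, the bright KLK2 points at -2.37 and -2.10 lie under its lower edge among scattered points, and KLK4 lies inside it.

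Along the chromosome the lower values were neighbours. In RefSeq gene order the cluster runs KLK1, KLK15, KLK3, KLK2, the pseudogene KLKP1, KLK4 and then KLK5 to KLK14, and the brightest probe set of each gene gave -0.23 for KLK1, -2.22 for KLK15, -5.61 for KLK3, -2.10 for KLK2 and 0.43 for KLK4. Of the kallikreins that are not members, KLK6 read 40.5 and 59.9 (0.56), with the C4-2B value under the floor, and was at least 1.43-fold higher by bound. KLK5 (0.06), KLK7 (-0.02), KLK13 (-0.26) and KLK14 (0.06) were within 2-fold and close to the floor, and KLK8 was under it on both arrays. The C4-2B-MDVR value of KLK13 (36.4) was under the floor, and by bound its difference was -0.0041. None of the 5 non-member kallikrein genes above the floor was 2-fold or more lower or higher.

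Genes on either side of the cluster were mostly at similar levels in both lines. Of the 12 protein-coding genes on each side, 21 had a probe set and 12 were above the floor, with a median of -0.02 beside 0.04 over all 13437 genes above the floor. Before KLK1, 0 of 7 genes above the floor were beyond 2-fold, and the nearest with a value, ACP4, read 85.6 and 78.7 (-0.12). CLEC11A, a secreted lectin on that side, read 331 and 217 (-0.61). After KLK14, 1 of 5 genes was 2-fold or more lower, against 3.50% of all genes. It was VSIG10L, an immunoglobulin domain protein, which read 342 and 78.9, a difference of -2.12. ETFB, an electron transfer flavoprotein subunit further on, read 1632 and 1205 (-0.44).

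**Figure D3:**
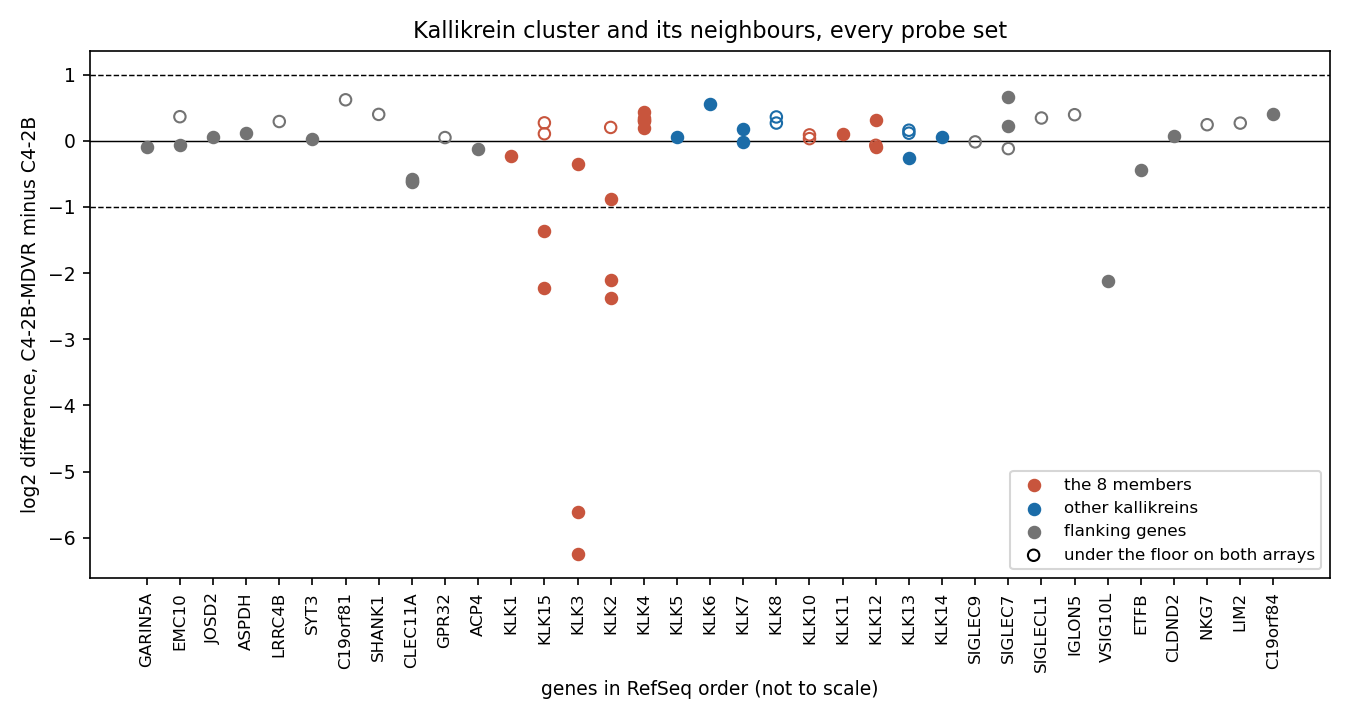
Log2 difference (C4-2B-MDVR minus C4-2B) of every probe set of the kallikreins and of up to 12 genes on each side, in RefSeq order and not to scale, with open circles under the floor on both arrays. Values beyond the dashed 2-fold line on the lower side come from KLK15, KLK3 and KLK2, which are adjacent, and from VSIG10L, while KLK4 lies just above 0.

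Other prostate secretory and surface products also differed in direction, with more of them below 0 than above it. Of 14 listed symbols, which include an older name of ACP3, 11 could be read and 8 passed the floor by their brightest probe set. Lower values by 2-fold or more were measured for 3, beside 3.50% of all genes, and higher ones for 0, beside 3.17%, with a median of -0.70. SLC45A3, a transporter also called prostein, read 1091 and 102 (-3.42). MSMB, which encodes a seminal plasma protein, read 68.6 and 19.7 (-1.80), with the C4-2B-MDVR value under the floor and a bound of at least 1.58-fold lower. Its other probe set read 87.8 and 13.4, at least 2.02-fold lower by bound. AZGP1, a zinc-binding glycoprotein of seminal fluid, read 751 and 372 (-1.01), and was short of 2-fold with loess (-0.99) and quantile normalization (-0.94). STEAP2 read 1915.5 and 1029 (-0.90), PIP read 99.8 and 70.9 (-0.49) and PART1 read 117 and 114 (-0.05), all short of 2-fold. In the other direction ACP3, prostatic acid phosphatase, read 158 and 315, a difference of 0.99 just short of 2-fold. FOLH1, which encodes prostate-specific membrane antigen, read 356 and 413 (0.21).

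The transcription factors that open prostate enhancers for androgen-driven genes showed little difference by their brightest probe sets. HOXB13 read 1879 and 1950 (0.05), but its other probe set read 994 and 1592 (0.68). GATA2 read 812 and 953 (0.23), and its dimmer probe sets differed by 0.38 and -0.03. GRHL2 read 1014 and 855 (-0.25). FOXA1 read 1047 and 989 (-0.08), but its other probe set read 370 and 163 (-1.18). Of the 4 listed factors above the floor 0 were beyond 2-fold.

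Other serine proteases that act at the prostate cell surface or in secretions lay mostly within 2-fold. Of 14 listed genes 13 passed the floor. Lower values by 2-fold or more were measured for 0, beside 3.50% of all genes, and higher ones for 2, beside 3.17%, with a median of 0.16. TMPRSS2, a membrane protease that androgen induces, read 610 and 506 (-0.27), and HPN, hepsin, read 269 and 244 (-0.14). PRSS23 read 82.5 and 298 (1.85), while its other probe sets were under the floor. PRSS8, prostasin, read 171 and 361 (1.08).

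Among 17 listed protease inhibitors 15 could be read and 6 passed the floor, with a median of 0.33. Higher values by 2-fold or more were measured for 1 and lower ones for 0, beside 3.17% and 3.50% of all genes. The 1 was SERPINB5, maspin, which read 33.1 and 191 (2.53) and was at least 4.57-fold higher by bound, while its other probe set was under the floor on both arrays. Maspin has the serpin fold but is not known as a classical protease inhibitor. SPINT1, an inhibitor of membrane serine proteases, read 693 and 1134 (0.71). SERPINA3, which binds PSA in blood, read 44.7 and 44.6, and SERPINA5, the protein C inhibitor of seminal plasma, was under the floor on both arrays.

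Genes for kallikrein substrates and receptors included several with higher values. Of 28 listed genes 25 could be read and 17 passed the floor. Higher values by 2-fold or more were measured for 5, beside 3.17% of all genes, and lower ones for 1, beside 3.50%, with a median of 0.24. IGFBP3, an insulin-like growth factor binding protein that KLK3 cleaves, read 110 and 925 (3.07) in its brightest probe set and 61.7 and 380 (2.62) in the other. FN1, fibronectin, also a KLK3 substrate, read 1227 and 4793 (1.97), and 4 further FN1 probe sets above the floor ran from 1.17 to 2.06. HGF, hepatocyte growth factor, read 57.9 and 156 (1.43), and its other 4 probe sets, all under the floor in C4-2B, were higher by bounds from at least 2.02-fold to at least 13.6-fold. LTBP1, which holds latent TGF-beta in the matrix, read 77.7 and 165 (1.08), but its other probe set read 73.8 and 73.0. BDKRB2, the kinin receptor on the path KLK1 feeds, read 48.7 and 99.8 (1.04), and was short of 2-fold with the arrays centred (0.98) or corrected by loess (0.96). DSG2, a desmosomal cadherin, was the 1 gene lower by 2-fold or more, at 3121 and 1487 (-1.07). Its other probe set, at 695 and 398 (-0.81), was short of 2-fold. The semenogelins SEMG1 and SEMG2 were under the floor on both arrays.

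**Figure D4:**
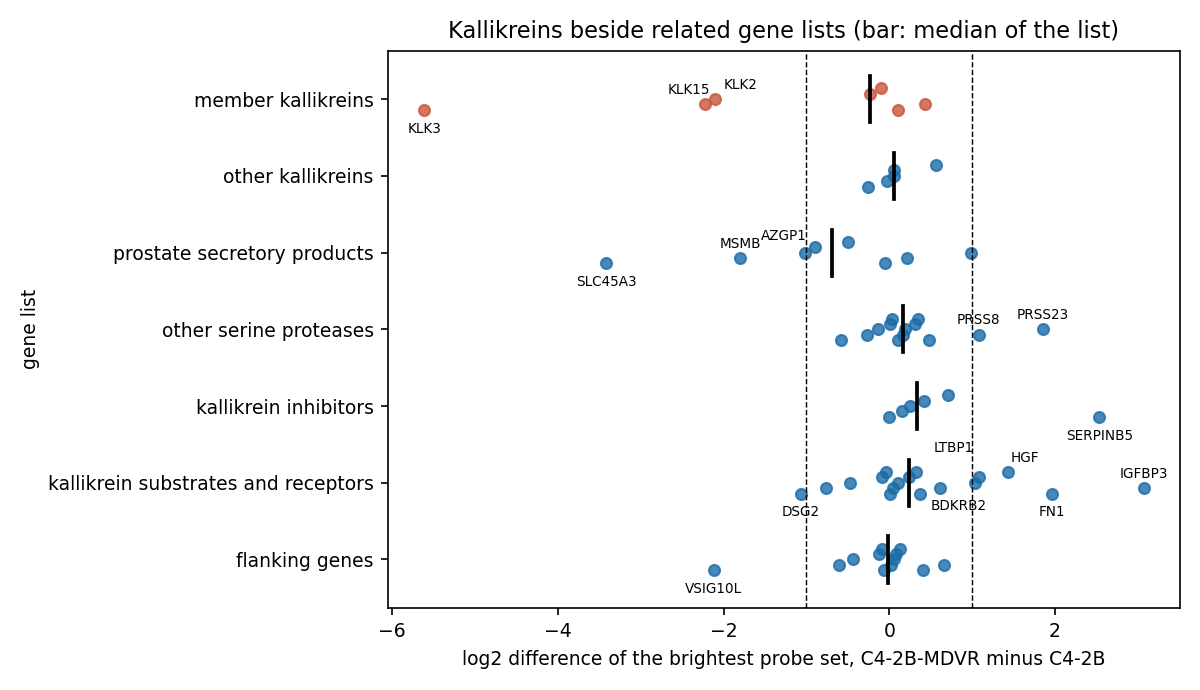
Log2 difference (C4-2B-MDVR minus C4-2B) of the brightest probe set of each gene above the floor, by gene list, with a black bar at the median of each list and dashed lines at 2-fold. Member kallikreins have a median of -0.23 with KLK3 far out at -5.61, prostate secretory products a median of -0.70, and substrates and receptors a median of 0.24 with IGFBP3 highest at 3.07.

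With 2 arrays, likeness to a kallikrein can only mean a log2 difference of similar size. Among protein-coding genes above the floor on both arrays, the 5 nearest to KLK3 (-5.61) were ELOVL7 (-4.92), EPHA3 (-4.86), ST6GALNAC1 (-4.60), CSTA (-4.60) and ELL2 (-3.70), so the nearest was 0.69 away. The 5 nearest to KLK2 (-2.10) were H2BC9 (-2.10), ABHD2 (-2.11), VSIG10L (-2.12), UGT2B28 (-2.12) and LIMCH1 (-2.07), all within 0.026. KLK3 thus had no close neighbour in size of difference, and KLK2 had several.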

How the data were processed

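The authors deposited 1 intensity value per probe set and array, on a linear scale as the range of values shows. How the background was corrected and the probe sets scaled and summarized is not given in the sources used here. Per the labels' protocols, total RNA was isolated with Trizol, amplified, fragmented and biotin-labelled. The table held 0 sample columns besides the 2 used.

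The analysis took log2 of the deposited values with no further scaling. Names came from the 2016 platform annotation: 41097 had 1 gene symbol, 1801 several and 11777 none. Of the first, 41043 matched RefSeq genes of GRCh38.p14 by Entrez identifier. A bound sets the dimmer value to its array's median. Each member probe set was described singly, and other lists by their brightest probe set, naming those past 2-fold and examples of each role. The members and lists were chosen with earlier results of these data known. Some listed genes are not reported here. Alternatives were other scalings, floors, thresholds, an added constant of 16 and other choices of probe sets. The steps were tested on simulated data with changes planted in bright probe sets only, so not for changes near the floor. Arrays number 1 per line, which limits the precision. Python 3.11.15, numpy 2.4.6, pandas 2.3.3, statsmodels 0.14.6 and matplotlib 3.10.9 were used.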

Additional observations from a re-analysis of the deposited data

How the results depend on the processing

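No paired analysis was possible because each line has 1 array and the result comes from no test. There were 10 alternatives of scaling, floor, threshold, added constant and bound. Across them the 23 member probe sets kept their call in 225 of 230 cases, but most were not called to begin with. Those lay mostly near 0 or under the floor and could hardly gain a call. The exceptions were KLK15 221462_x_at, no longer called with 16 units added before log2 (-0.99), with dim values raised to the floor (-0.70), with a floor at the 75th percentile and at 3-fold, and KLK2 209855_s_at (-0.88), called lower at 1.5-fold. The bright probe sets ranged from -6.29 to -6.04 and -5.66 to -5.48 for KLK3, and from -2.43 to -2.29 and -2.15 to -2.03 for KLK2. The count of lower members, 6 of 17 probe sets, was 3 of 7 genes by the brightest probe set, 2 of 7 when all probe sets per gene were averaged (KLK15 then at -0.80) and 1 of 2 without probe sets ending in _s_at, _x_at or _a_at. The median over members, -0.23, is the value of the only KLK1 probe set. It was -2.10 with a floor at the 75th percentile, which keeps 9 probe sets. With a floor at the 25th percentile it was -0.017, and with no floor 0.033, as dim probe sets near 0 were added. In the other lists, the 5 substrate and receptor genes called higher became 4 with the arrays centred, with loess or with the higher floor. They became 3 with 16 units added, 2 at 3-fold and 6 at 1.5-fold. The 1 gene of that list called lower became 0 at 3-fold and 2 at 1.5-fold. The 3 secretory products called lower became 2 in 6 alternatives, through AZGP1 with loess, quantile normalization, 16 units added and 3-fold, and through MSMB with the higher floor and with dim values raised. The secretory products called higher went from 0 to 1 with quantile normalization and at 1.5-fold, and the serine proteases called lower from 0 to 1 without a floor, at 1.5-fold and with the 25th percentile as floor. The deposited values carry no detection calls, so the floor is an approximation, and values near it have no firm order.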
